A study of Mus musculus with 96 samples.

Results

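The Bcl2 family genes followed here were 10 genes chosen by symbol: Mcl1, Bcl2, Bcl2l1, Bcl2l11, Bbc3, Pmaip1, Bmf, Bad, Bax and Bak1. All 10 were found in the deposited table of 15895 genes, with 1 row each. They were read in primary embryonic fibroblasts of CF-1 mice, taken at embryonic day 13, that were held for 36 h in medium with 0.5% fetal calf serum (FCS) and then brought to 20% FCS at 0 h. Polyadenylated RNA was sequenced in 2 time courses, which the study names Cycle 1 and Cycle 2. The labels list 96 libraries, and 95 were analysed: 63 of Cycle 1 from -1 to 38 h and 32 of Cycle 2 from -1 to 27 h. The remaining library, of Cycle 1, was not analysed here, because no column name matched its label. The study collected the series to follow genes through the cell cycle.

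Each library after serum was set against the starved libraries of its own Cycle, those at -1 and 0 h, both collected before serum was added. All cells carried the same background and had been starved, and no library came from cells kept in low serum after 0 h, so the effect of serum and that of elapsed time cannot be told apart. The methods of the study state that starvation and refeeding need not synchronise every cell. The labels do not say whether the Cycles came from separate embryos or cultures, so the p-values measure only the spread between the 2 courses. In bulk RNA, fewer cells of a type and less RNA per cell cannot be told apart.

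Proteins of the Bcl2 family decide whether the outer mitochondrial membrane stays closed or is opened to release cytochrome c, which starts the caspase cascade. Mcl1, Bcl2 and Bcl2l1 (Bcl-xL) are pro-survival members that hold the membrane closed. The BH3-only proteins Bcl2l11 (Bim), Bbc3 (Puma), Pmaip1 (Noxa), Bmf and Bad carry stress signals and bind the pro-survival members, and Bax and Bak1 are the effectors that form the pores. Growth factors are known to hold the BH3-only proteins down, and forkhead box O factors, which are active when growth factors are withdrawn, are known to drive several of their genes.

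The depth, in reads worked out from the steps of the values, ran from 5067432 to 14500278 reads in Cycle 1 and from 5179763 to 13072794 in Cycle 2. Values are normalised tags per 10000000, not divided by transcript length, so levels are compared within a gene and not between genes. The summed level of 8 fibroblast markers was between 341220 and 503380 in starved and between 150960 and 479960 in later libraries, with medians of 423240 and 197210. In starved and in later libraries, the sums were 260 to 619 and 158 to 751 for 5 leukocyte markers, 176 to 272 and 37.2 to 265 for 4 endothelial, and 109 to 275 and 33.1 to 599 for 4 epithelial ones. For 4 neural markers they were 684 to 1136 and 593 to 4822, mostly from Nes, which ran from 506 to 4591 and whose list went from a median of 908 to 1948, and for 3 muscle markers 609 to 1667 and 313 to 2180, mostly from Des. Of these lists Pecam1, Cdh5, Epcam, Gfap, Myod1 and Myog were at 0 in at least 1 library, and the part of such cells in the results was not tested. A few libraries stood apart. The Cycle 1 library at 24.5 h had a median log2 distance of 0.411 from its neighbours in time, against a typical 0.0896 in that Cycle, and those at 24, 25 and 26 h had 0.262, 0.234 and 0.227 and that at 5.5 h 0.235. The libraries at 5.5 and 24.5 h were outside the hours tested, and leaving out those of Cycle 1 at 24, 25 and 26 h changed no call of a member. In Cycle 2, the 20 h library was above both neighbours for 166 of 235 genes that were high in starved cells and low at 15 to 18 h. For the libraries at 17, 18, 22 and 23 h, which do not have that library as a neighbour, the count was 74 to 88 of the same genes.

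Changes were taken as the log2 of (value + 1) in each of 8 windows of hours that both Cycles sampled, minus the starved mean of the same Cycle. They are given as the mean over the 2 Cycles ± the standard error (SE) of limma, a linear model fitted across all genes, and a member was called at an adjusted p under 0.05. Of 80 pairs of member and window, 43 were called, 18 higher and 25 lower. At 1 to 1.5 h, 2 members were higher and none was lower, against 5% and 11.5% of all genes. At 2 to 3 h, 2 were higher and 4 lower, where 12.2% of all genes were higher and 33.8% lower. At 4 to 6 h the count was 1 higher and 4 lower (all genes 15.8% and 31.9%), and at 7 to 10 h it was 1 higher and 3 lower (16.1% and 26.8%). From 11 to 14 h, 3 members were higher and 4 lower, with 16.7% and 26% of all genes, and the same counts held at 15 to 18 h, with 16.5% and 25.9%. At 19 to 23 h and at 24 to 27 h, 3 were higher and 3 lower, against 17.2% and 28.9% and then 16.5% and 30.3% of all genes. With so many genes changed, the share of members called was not far from the background, and 9 of 10 members were called in some window against 80.3% of all genes. The median change of the 10 members was between -0.40 and -0.0056 over the windows, and that of all genes between -0.32 and -0.12. Scaling by the trimmed mean of M values (TMM) in place of the deposited scaling moved the median of all genes up by at most 0.28, at 2 to 3 h. The members were then called higher 21 times and lower 22 times, and over all genes and windows the calls went from 18441 higher and 34189 lower to 23284 and 27797. No member's called change turned its direction under TMM.

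The members differed from each other in direction, size and timing. Mcl1 and Bcl2l11 rose in the first hours and came down again, and Bcl2l1, Bax and Bak1 rose later and stayed higher up to the 24 to 27 h window. Bcl2l1 did not stay at that level in the later hours of Cycle 1, where it was between 396 and 760 at 33 to 38 h. Bcl2 and Bad fell for some hours and came back, and Bmf and Bbc3 were called lower in every window from 2 to 3 h on. In the Cycle 2 library at 27 h, however, Bbc3 was 158, above both starved libraries of its Cycle, and Bmf was 94.9, between them. Pmaip1 was not called in any window.

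**Figure D1:**
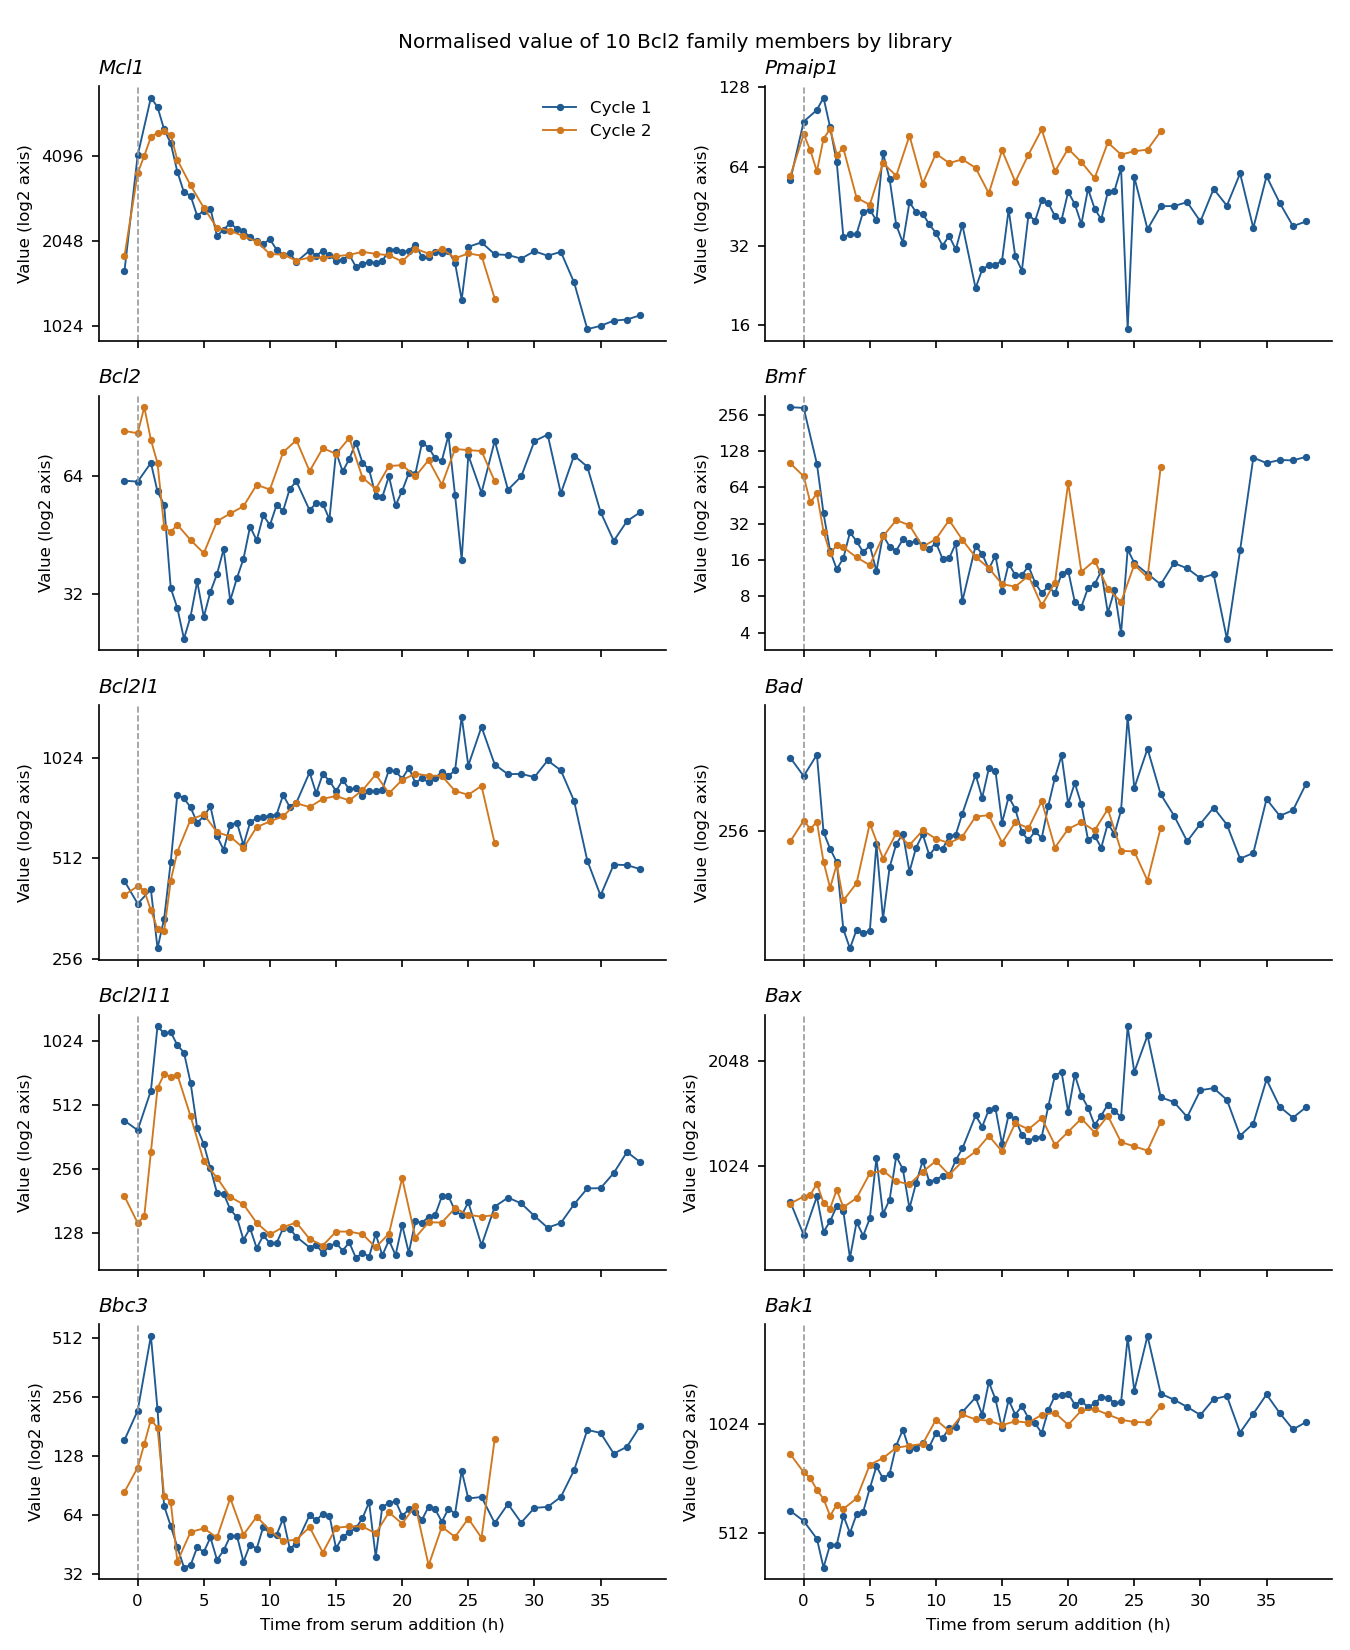
Normalised value (tags per 10000000, log2 axis, a separate range for each gene) against hours from serum addition, 1 point per library, with Cycle 1 in blue, Cycle 2 in orange and a dashed line at 0 h. Mcl1 and Bcl2l11 peak between 1 and 2 h in both Cycles, Bmf goes from 296 and 101 at -1 h to 13.4 and 21.2 at 2.5 h, and Bmf and Bbc3 are high again from 34 h in Cycle 1 and at 27 h in Cycle 2.

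**Figure D2:**
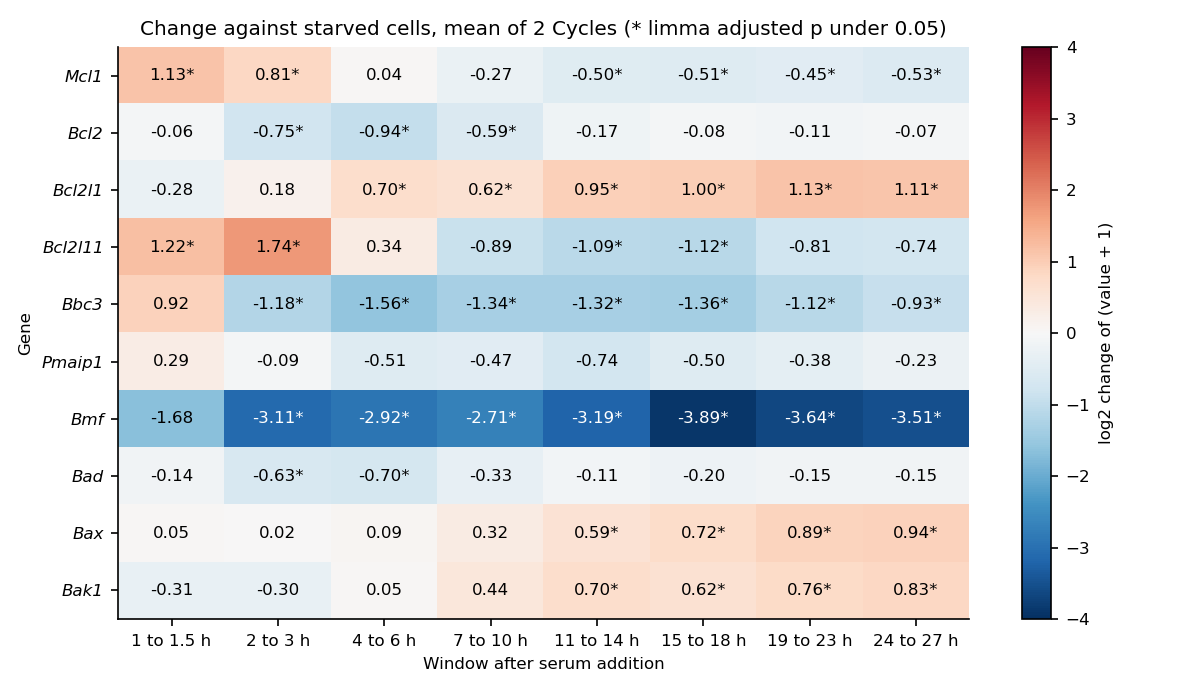
Change of log2 (value + 1) against starved cells, mean of the 2 Cycles, with a row for each gene and a column for each window of hours after serum; red is higher, blue is lower, and a star marks a limma adjusted p under 0.05. Bmf holds the deepest falls, reaching -3.89 at 15 to 18 h, and Bcl2l11 the highest rise, 1.74 at 2 to 3 h.

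Mcl1 lies on chromosome 3 (NCBIM37, which is mm9, 95462643 to 95467099, plus strand) and encodes a short-lived pro-survival protein. Its value was 1601 at -1 h, 4136 at 0 h, then 6637 at 1 h and 6145 at 1.5 h in Cycle 1. The same hours of Cycle 2 gave 1810, 3571, 4804 and 4974. Both libraries of the first window were above both starved libraries in each Cycle, and the change was 1.13 ± 0.132 (limma adjusted p = 0.000319, higher in 2 of 2 Cycles), or 2.18-fold. The level then came down to between 2134 and 2970 at 4 to 6 h in Cycle 1 and between 2283 and 3232 in Cycle 2. From 11 to 27 h it held between 1700 and 2026 in the shared hours of Cycle 1. In Cycle 2 it held between 1734 and 1926 up to 26 h.

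The 2 starved hours did not have the same Mcl1 level, and this bears on every Mcl1 change. Between -1 and 0 h, with no serum added, Mcl1 went up by 1.17 ± 0.127 on the log2 scale (limma adjusted p = 1.23e-07, in 2 of 2 Cycles), 2.26-fold. The test took single libraries as samples, and hours of a course next to each other are not replicates, so its p-values may be too small. Only 0.459% of all genes were called higher and 0.0944% lower in this comparison, and Mcl1 ranked 17 of 15895 by p. None of the other 9 members was called by limma, none of them had an unadjusted p under 0.05, and edgeR was not run on this comparison. The next changes in size were those of Pmaip1, at 0.62 ± 0.361, and of Bbc3, at 0.45 ± 0.400, each with the same sign in both Cycles.

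Against the mean of both starved hours, Mcl1 was lower in the last 4 windows, by -0.50 ± 0.132 at 11 to 14 h (adjusted p = 0.0129) and by -0.53 ± 0.132 at 24 to 27 h (adjusted p = 0.00830), in 2 of 2 Cycles each. These falls depended on the 0 h libraries. Against -1 h alone the change at 11 to 14 h was 0.090 (adjusted p = 0.628), and without either of the 0 h libraries the calls of the last 4 windows were lost. The early rise at 1 to 1.5 h was called against either hour, at 1.71 against -1 h and 0.54 against 0 h. The rise of 0.81 ± 0.132 at 2 to 3 h (adjusted p = 0.000658) was 0.23 against 0 h alone (adjusted p = 0.199), and its call was also lost without the -1 h library of Cycle 1. At 4 to 6 h, where the change was 0.040 ± 0.132 and not called, Mcl1 was called higher against -1 h alone (0.63, adjusted p = 0.00448) and lower against 0 h alone (-0.55, adjusted p = 0.00775), and at 7 to 10 h it was called lower against 0 h alone (-0.86, adjusted p = 0.000844) and by edgeR (-0.50, adjusted p = 0.00598).

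**Figure D3:**
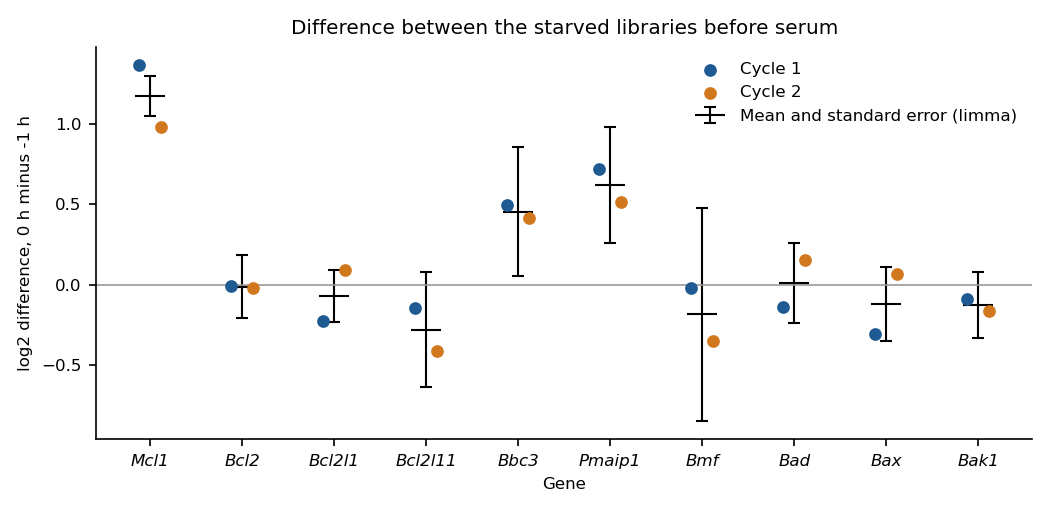
Difference in log2 (value + 1) between the starved libraries at 0 h and at -1 h for each member; points are the 2 Cycles and the bar with whiskers is the limma mean ± SE. Mcl1 is at 1.37 in Cycle 1 and 0.98 in Cycle 2, while the other members' means lie between -0.28 and 0.62.

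Bcl2, on chromosome 1 (108434755 to 108610851, minus strand), encodes the founding pro-survival protein of the family. It was 62.4 and 62.0 in the starved libraries of Cycle 1 and 83.5 and 82.4 in those of Cycle 2, so the starved hours were close together. At 3 h it was 29.5 in Cycle 1 and 48.1 in Cycle 2, and at 5 h it was 28.0 and 40.8. Every shared library from 2 to 10 h was below both starved libraries of its Cycle. The change was -0.75 ± 0.155 at 2 to 3 h (adjusted p = 0.00260), -0.94 ± 0.155 at 4 to 6 h (adjusted p = 0.000777) and -0.59 ± 0.155 at 7 to 10 h (adjusted p = 0.0117), lower in 2 of 2 Cycles in each. The last of these was not called without the Cycle as a block (adjusted p = 0.0769). From 11 h no window was called, and the change at 24 to 27 h was -0.065 ± 0.155. Counts of Bcl2 were low, down to 21 reads in a library, 55.8% of its values were whole reads, and its exons overlap those of D630008O14Rik on the other strand, which counting without strand cannot separate.

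Bcl2l1, on chromosome 2 (152593052 to 152657464, minus strand), encodes the pro-survival protein Bcl-xL. It was 437 and 374 at -1 and 0 h in Cycle 1 and 397 and 422 in Cycle 2. It first dipped, to 275 at 1.5 h in Cycle 1 and 309 at 2 h in Cycle 2, and then went to 794 and 535 at 3 h. The dip was not called (-0.28 ± 0.140 at 1 to 1.5 h, adjusted p = 0.226). The rise was called in every window from 4 to 6 h (0.70 ± 0.140, adjusted p = 0.00241) and reached 1.13 ± 0.140 at 19 to 23 h (adjusted p = 0.000233), 2.18-fold, higher in 2 of 2 Cycles. From 4 to 27 h all shared libraries, which ran from 549 to 1267, lay above the starved libraries of both Cycles. No alternative run ended any of these 6 calls.

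Of the 3 pro-survival genes, then, each had its own course. Mcl1 was higher at 1 to 1.5 h, and at 2 to 3 h against the mean of the starved hours but not against 0 h alone. Bcl2 was lower from 2 to 10 h, with the call at 7 to 10 h resting on the Cycle as a block. Bcl2l1 was higher from 4 h to 27 h.

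Of the 9 members with a promoter sequence in the RefSeq table (GRCm38.p6, 250 bases before to 50 after the start of each transcript), Bcl2l11 and Bbc3 held the forkhead motif TGTTTAC on either strand. They are shown because both are BH3-only genes, and the background above ties several such genes, without naming them, to forkhead factors. Bmf and Bad, the other BH3-only genes with a promoter sequence, held no forkhead match. The capitals mark the motif. The stretches are chr2:128125800-128125828 for Bcl2l11 and chr7:16310083-16310111 for Bbc3, both plus strand, from 238 to 210 and from 178 to 150 bases before the start:
Bcl2l11: aagacactaggGTAAACAcgccggggtgg
Bbc3: tctggcgggttTGTTTACaaacaatgggg

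The forkhead motif was in 3.65% of all 32851 promoters. Shares of all promoters count each transcript's promoter, while a member was counted if any of its promoters held the motif, so the units differ. The E-box CACGTG, present in 7.15%, was in Bax and Bbc3, and the E2F motif TTTCGCG, present in 0.849%, was in Bcl2l1. The cyclic AMP response element TGACGTCA, the AP-1 motif TGANTCA and the serum response element were in none of the 9 promoters and in 1.79%, 7.81% and 1.63% of all promoters. Pmaip1 was not in the table. A match of letters is a description of these windows only.

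Bcl2l11, on chromosome 2 (127951774 to 127988283, plus strand), encodes Bim, a BH3-only protein that binds all pro-survival members. It was 433 and 391 in the starved libraries of Cycle 1 and 191 and 143 in those of Cycle 2. It then reached 1203 at 1.5 h in Cycle 1 and 718 at 2 h in Cycle 2. Every library from 1 to 3 h was above the starved libraries of its Cycle. The change was 1.22 ± 0.357 at 1 to 1.5 h (adjusted p = 0.0410) and 1.74 ± 0.357 at 2 to 3 h (adjusted p = 0.00267), 3.33-fold, higher in 2 of 2 Cycles. The first of the 2 was not called without the Cycle as a block (adjusted p = 0.0720), with a pseudocount of 0.1 (adjusted p = 0.0521) or without the 0 h library of Cycle 1 (adjusted p = 0.0507).

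After this peak Bcl2l11 came down to between 104 and 136 at 11 to 18 h in the shared hours of Cycle 1 and to between 110 and 144 in Cycle 2. The level was thus alike in the 2 Cycles, but the starved level was not. The change at 15 to 18 h was -1.12 ± 0.357 (adjusted p = 0.0286), made up of -1.83 in Cycle 1 and -0.41 in Cycle 2. In Cycle 2 alone it was not called (adjusted p = 0.193), nor was it without the -1 h library of Cycle 2 or against 0 h alone. The fall at 11 to 14 h, -1.09 ± 0.357 (adjusted p = 0.0320), was lost in the same cases and without the block (adjusted p = 0.0540). Only 32.6% of the deposited values of Bcl2l11 were whole reads, against 100% for 8 of the members.

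Bbc3, on chromosome 7 (16894965 to 16903554, plus strand), encodes Puma, best known as a target of p53. It was 155 and 219 at -1 and 0 h in Cycle 1 and 83.9 and 112 in Cycle 2. At 1 h it was 528 in Cycle 1 and 197 in Cycle 2, and at 3 h it was 43.9 and 37.0. The early peak was above the starved libraries in both Cycles but was not called (0.92 ± 0.322 at 1 to 1.5 h, adjusted p = 0.0806), though it was in 5 of the alternatives. The drop that followed was called against the window before it, at -2.10 ± 0.322 (adjusted p = 0.00238). Against starved cells Bbc3 was called lower in every window from 2 to 3 h (-1.18 ± 0.322, adjusted p = 0.0119), with its largest fall at 4 to 6 h (-1.56 ± 0.322, adjusted p = 0.00284, lower in 2 of 2 Cycles).

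The falls of Bbc3 were larger in Cycle 1, at -2.24 against -0.89 in Cycle 2 for 4 to 6 h. In Cycle 2 alone the calls at 2 to 3, 7 to 10, 15 to 18, 19 to 23 and 24 to 27 h were lost. At 24 to 27 h the change of -0.93 ± 0.322 (adjusted p = 0.0359) included the Cycle 2 library at 27 h, where Bbc3 was 158, and without that library, the one at 20 h and the Cycle 1 library at 26 h it was -1.16 (adjusted p = 0.0147). The call of that window was also lost under TMM (adjusted p = 0.0506), against -1 h alone (-0.70, adjusted p = 0.0928) and without the 0 h library of Cycle 2 (adjusted p = 0.0730).

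Bmf, on chromosome 2 (118354493 to 118375423, minus strand), encodes a BH3-only protein linked to loss of attachment. It had the largest change of any member. It was 296 and 292 in the starved libraries of Cycle 1 and 101 and 79.1 in those of Cycle 2. At 1 h it was 100 and 57.1, and by 2 h it was 19.0 and 18.1. Starved and treated libraries did not overlap from 1 h in either Cycle, apart from the Cycle 2 library at 27 h, which was 94.9.

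The fall of Bmf was -1.68 ± 0.530 at 1 to 1.5 h, where the adjusted p of 0.0545 missed the threshold but was under it in 10 of the alternatives, among them edgeR (adjusted p = 0.0471), and -3.11 ± 0.530 at 2 to 3 h (adjusted p = 0.000896). It was called in all 7 windows from then on, lower in 2 of 2 Cycles, and was deepest at 15 to 18 h, at -3.89 ± 0.530 (adjusted p = 0.000417). In that window its value was between 8.5 and 14.3 in Cycle 1 and between 6.7 and 11.8 in Cycle 2, below all starved libraries. These are few reads, and the lowest Bmf count of any library, at 24 h of Cycle 1, was 2. The Cycle 2 library at 20 h held 69.8, against 10.4 at 19 h and 12.8 at 21 h, and Bcl2l11 was also above its neighbours there, at 233 against 128 and 122. Without it and the libraries at 26 h of Cycle 1 and 27 h of Cycle 2, the change of Bmf was -3.89 in place of -3.64 at 19 to 23 h and -3.95 in place of -3.51 at 24 to 27 h.

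Bad, on chromosome 19 (7016351 to 7026388, plus strand), encodes a BH3-only protein that growth factor kinases inactivate by phosphorylation. It was 377 and 343 in the starved libraries of Cycle 1 and 243 and 271 in those of Cycle 2. At 4 to 6 h the shared libraries of Cycle 1 held 151 to 161 and those of Cycle 2 held 195 to 267, so the groups overlapped in Cycle 2. The change was -0.63 ± 0.224 at 2 to 3 h (adjusted p = 0.0401) and -0.70 ± 0.224 at 4 to 6 h (adjusted p = 0.0261), lower in 2 of 2 Cycles, and no other window was called. With TMM scaling neither was called (adjusted p = 0.216 and 0.0736), and in Cycle 2 alone the fall at 4 to 6 h was -0.18 (adjusted p = 0.234). The fall at 2 to 3 h was also not called under upper quartile scaling (-0.45, adjusted p = 0.127), without the block (adjusted p = 0.0550), against -1 h alone (adjusted p = 0.0508) or without the 0 h library of Cycle 2 (adjusted p = 0.0569). The exons of Bad overlap those of Gpr137 on the other strand, so part of these reads may belong to that gene.

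Pmaip1, on chromosome 18 (66618258 to 66625204, plus strand), encodes Noxa, which binds Mcl1. It was 57.1 and 94.8 at -1 and 0 h in Cycle 1 and 59.1 and 84.9 in Cycle 2. The largest change was -0.74 ± 0.340 at 11 to 14 h (adjusted p = 0.103), with -1.27 in Cycle 1 and -0.20 in Cycle 2. In Cycle 1 its 4 shared libraries there held 22.1 to 38.4, below both starved libraries, and in Cycle 2 they held 50.6 to 68.1, which overlapped the starved ones. The change at 11 to 14 h was called in 3 of the alternatives, and those at 7 to 10 h and at 15 to 18 h in 1 each. Reads of Pmaip1 went down to 20 in a tested library, at 13 h of Cycle 1, and to 11 at 24.5 h, outside the hours tested. Such low counts limit what could be seen at this depth.

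Bax, on chromosome 7 (52717065 to 52722268, minus strand), and Bak1, on chromosome 17 (27156755 to 27165954, minus strand), encode the pore-forming effectors. Bax was 809 and 653 in the starved libraries of Cycle 1 and 802 and 840 in those of Cycle 2. At 19 to 23 h it held 1342 to 1857 over 5 libraries of Cycle 1 and 1178 to 1426 over 5 of Cycle 2. The groups did not overlap, and the change was 0.89 ± 0.196 (adjusted p = 0.00491, higher in 2 of 2 Cycles), 1.85-fold. Bax was called in each of the last 4 windows, first at 0.59 ± 0.196 for 11 to 14 h (adjusted p = 0.0323, not called without the 0 h library of Cycle 1), and reached 0.94 ± 0.196 at 24 to 27 h (adjusted p = 0.00363).

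Bak1 was 588 and 552 in the starved libraries of Cycle 1 and 842 and 752 in those of Cycle 2. It was 410.5 at 1.5 h in Cycle 1 and 569 at 2 h in Cycle 2, its lowest values. This early dip was not called by limma at 1 to 1.5 h (-0.31 ± 0.204, adjusted p = 0.361) or at 2 to 3 h (-0.30 ± 0.204, adjusted p = 0.254). The change at 2 to 3 h was called in 2 of the alternatives. At 19 to 23 h it held 1163 to 1239 in Cycle 1 and 1015 to 1122 in Cycle 2, above all starved libraries. The change was 0.76 ± 0.204 (adjusted p = 0.0123, higher in 2 of 2 Cycles), and Bak1 too was called in each of the last 4 windows, with the call at 15 to 18 h lost against -1 h alone (adjusted p = 0.0543). The highest values of Bax (2565 and 2415) and of Bak1 (1767 and 1787) came from the Cycle 1 libraries at 24.5 and 26 h, which stood apart. Without the 26 h library and the 2 of Cycle 2 named above, the changes at 24 to 27 h were 0.84 for Bax and 0.74 for Bak1, and without those of Cycle 1 at 24, 25 and 26 h they were 0.86 and 0.77. The exons of Bak1 overlap those of Ggnbp1 on the other strand.

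Each window was also set against the window before, up to 27 h. Of 70 pairs of member and window 6 were called, at 2 to 3 h or 4 to 6 h, where most calls over all genes fell too. At 2 to 3 h Bcl2 fell by 0.69 and Bbc3 fell by 2.10 on the log2 scale and Bcl2l1 rose by 0.46, where 7.61% of all genes were called higher and 14.3% lower. At 4 to 6 h Mcl1 fell by 0.77 and Bcl2l11 fell by 1.40 on the log2 scale and Bcl2l1 rose by 0.52, against 10.1% higher and 4.96% lower. Without the Cycle as a block the falls of Bbc3 and Mcl1 alone were called, and Bcl2 (adjusted p = 0.0783), Bcl2l11 (adjusted p = 0.0510) and both rises of Bcl2l1 (adjusted p = 0.0878 and 0.0771) were not. The rise of Bcl2l1 at 4 to 6 h was also lost under TMM (adjusted p = 0.0745), under upper quartile scaling (adjusted p = 0.0783) and in Cycle 1 alone, and that at 2 to 3 h in Cycle 2 alone and with 0 h as the only starved hour.

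At 7 to 10 h no member was called by limma, which called 1.1% of all genes higher and 0.623% lower. There, 3 members had an unadjusted p under 0.05, against 18% of all genes, and edgeR called 1, against 4.32%. In the last 4 contrasts no member was called by limma or edgeR, and over all genes limma called 1, which is 0.00629% in its contrast, and edgeR 3. An unadjusted p under 0.05 was found for 2 of 40 pairs of member and window, against 3.99% over all genes. In an F test over all 29 shared hours, called at an adjusted p under 0.05 where the change also passed 1 or -1 on the log2 scale, 8 of 10 members passed, all but Pmaip1 and Bad, against 52.5% of all genes. That test took single libraries as samples, and hours of a course next to each other are not replicates, so its p-values may be too small.

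The 2 Cycles did not start from the same starved levels. In Cycle 2 starved cells held less Bcl2l11 (-1.31 ± 0.327, limma adjusted p = 0.00188), Bmf (-1.71 ± 0.657, adjusted p = 0.0471), Bbc3 (-0.92 ± 0.349, adjusted p = 0.0444) and Bad (-0.48 ± 0.174, adjusted p = 0.0322) than in Cycle 1. They held more Bak1 (0.48 ± 0.129, adjusted p = 0.00380). Of all genes, 14.3% were called lower and 13% higher in starved Cycle 2. This comparison took the libraries of a window as samples, and hours of a course next to each other are not replicates, so its p-values are too small. The 4 genes lower in starved Cycle 2 are all BH3-only genes, and the fifth, Pmaip1, differed by -0.054 ± 0.307 (adjusted p = 0.926). The interaction of Cycle and window, tested over the same libraries, was called for 6 of 10 members, Bcl2l11, Bbc3, Pmaip1, Bad, Bax and Bak1, against 41.4% of all genes.

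**Figure D4:**
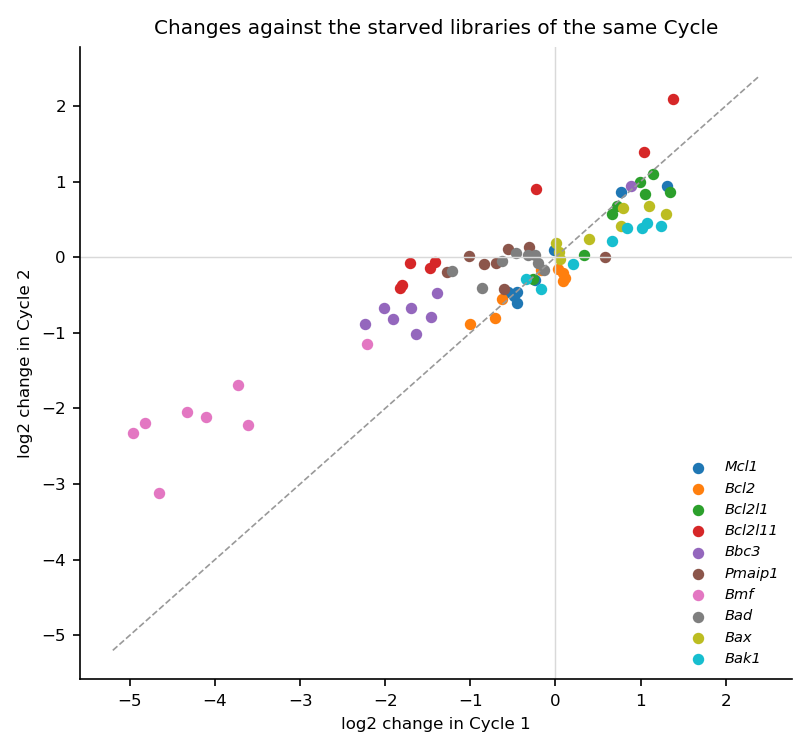
Change of log2 (value + 1) against the starved libraries of the same Cycle, in Cycle 1 (x axis) and Cycle 2 (y axis), with 1 point for each of the 8 windows of each gene, coloured by gene, and the dashed line where both are equal. The points of Bmf and Bbc3 below 0 lie above the line, with falls of up to -4.96 for Bmf in Cycle 1 and up to -3.12 in Cycle 2.

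Cycle 1 went on to 38 h, and its last hours were described without a test, because they have no counterpart in Cycle 2. Bmf was between 3.56 and 15.1 in the 5 libraries from 28 to 32 h. It was 19.3 at 33 h, 113 at 34 h and 115 at 38 h, and all 6 libraries from 33 h lay above the earlier ones. The mean change was 2.89 on the log2 scale, 7.41-fold, which was rank 3 by rise among all 15895 genes. Bbc3 went from 58.5 to 79.3 up to 108 to 183, 2.12-fold, also with no overlap. Mcl1 went from 1774 to 1885 down to 995 to 1459, and Bcl2l1 from 896 to 1005 down to 396 to 760, again without overlap. Of all genes, 8.69% were higher and 6.04% lower with no overlap between these hours, and of the 10 members 2 were higher and 2 lower.

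The last library of Cycle 2, at 27 h, lay outside the range of those at 24 to 26 h for most members, the same 4 genes among them. Pmaip1, Bad, Bax and Bak1 were also above that range and Bcl2 was below it, without such a separation at 33 to 38 h of Cycle 1. Bmf was 94.9 (3.04 higher on the log2 scale), Bbc3 was 158 (1.55 higher), Mcl1 was 1279 (-0.50) and Bcl2l1 was 567 (-0.53). With 1 library there is no replicate check, and 37.5% of all genes were above and 24.5% below all 3 earlier libraries, against 6 and 3 of the members. Over 9112 genes with a mean over 100, the changes of the 2 late spans correlated with r = 0.446, which is across genes and not independent samples. Of the 10 members 7 had the same sign in both, Pmaip1 among them with a change of only 0.0023 in Cycle 1. The share of all genes with the same sign was not worked out, so this count has no background. The hour at which Bmf, Bbc3, Mcl1 and Bcl2l1 changed differed between the Cycles, 33 to 34 h in Cycle 1 and 27 h in Cycle 2. Whether medium, cell density or handling changed then is not given in the sources used here, and their part was not tested.

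**Figure D5:**
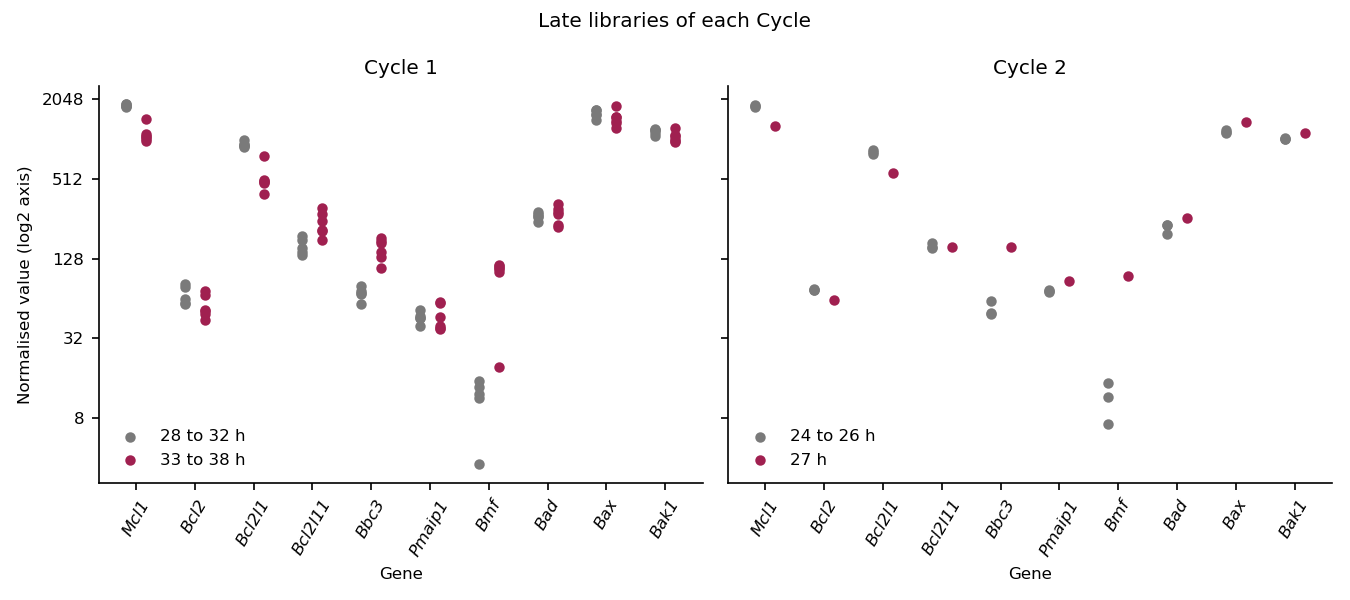
Normalised value (tags per 10000000, log2 axis) of each member in the late libraries, 1 point per library, with 28 to 32 h (grey) and 33 to 38 h (red) of Cycle 1 on the left and 24 to 26 h (grey) and 27 h (red) of Cycle 2 on the right. Bmf and Bbc3 are higher and Mcl1 and Bcl2l1 lower in the later libraries of both Cycles.

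The members were also set beside each other and beside all genes by the root mean square difference of their log2 changes over 91 libraries after serum. Bax and Bak1 were the closest pair of members, at 0.22, followed by Bcl2l1 with Bax at 0.42 and with Bak1 at 0.43. Bmf was far from all others, at 2.42 from Bbc3, its nearest member. Among genes with a mean of at least 100, the nearest to Bax were Psmc3 (0.14) and Uqcrc1 (0.15), to Bak1 Lap3 (0.14) and Vps36 (0.15), and to Bcl2l1 Bicd2 and Dhx37 (0.24 each). The nearest to Mcl1 were Lrig1 (0.28) and Wwtr1 (0.36), to Bcl2 Atpbd4 (0.24) and Sdha (0.25), and to Bcl2l11 Smad3 (0.41) and Fam46a (0.50). Bbc3 was nearest to Tcf7l1 (0.42) and Hist1h1c (0.43), Pmaip1 to Srsf5 and Pex3 (0.37 each), and Bmf, with larger distances, to Igsf10 (0.91) and Gas1 (1.04). Bad was nearest to Cbr1 (0.15) and to Gpr137 (0.17), the gene whose exons it overlaps.

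Other genes of the pathway were read from 4 lists, to be set against the 80.3% of all genes called in some window. Of 14 further Bcl2 family genes, 10 were in the table, 6 of them higher in some window, 2 lower and 3 not called, 1 gene being counted in both directions. Bok, a pore-forming relative of Bax and Bak1, was higher from 11 to 14 h on and by 2.20 ± 0.393 at 24 to 27 h (adjusted p = 0.00160). Bcl2l15 was higher by 2.65 ± 0.358 at 7 to 10 h (adjusted p = 0.000352) and Bcl2l14 by 1.79 ± 0.512 in that window (adjusted p = 0.0174), both from values of a few tags, so that their folds depend on the added 1. Bcl2l12 was lower at 2 to 3 h (-0.93 ± 0.155, adjusted p = 0.000764), and Bcl2a1b at 24 to 27 h (-1.03 ± 0.334, adjusted p = 0.0282), which shares reads with near-identical copies and is uncertain. The median of the list was between 0.13 and 0.46 over the windows, where that of all genes was between -0.32 and -0.12.

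Of 20 genes of the mitochondrial and caspase steps, 5 were higher in some window, 11 lower and 5 not called, with 1 gene, Birc3, in both directions. Birc3, an inhibitor of apoptosis, was higher by 1.39 at 1 to 1.5 h (adjusted p = 0.000562) and lower by the end (-1.43 ± 0.178 at 24 to 27 h, adjusted p = 0.000213). Htra2, a mitochondrial protease, was higher by 1.28 ± 0.209 at 19 to 23 h (adjusted p = 0.00105) and the nuclease Endog by 0.77 ± 0.188 at 11 to 14 h (adjusted p = 0.00856). Xiap, a direct caspase inhibitor, was lower at 2 to 3 h (-1.27 ± 0.238, adjusted p = 0.00161) and the initiator caspase gene Casp2 at 1 to 1.5 h (-1.25 ± 0.127, adjusted p = 0.000139). The list median was between -0.58 and 0.018.

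Of 8 death receptor genes, 2 were higher in some window, 5 lower and 1 not called. Fas, the receptor itself, was lower from 4 to 6 h on and by -1.94 ± 0.304 at 11 to 14 h (adjusted p = 0.000912), and the adaptors Tradd (-1.09 ± 0.117, adjusted p = 6.84e-05) and Fadd (-0.99 ± 0.172, adjusted p = 0.000999) were lower at 2 to 3 h. Cflar, which blocks caspase activation at the receptor, was higher by 1.09 ± 0.180 at 4 to 6 h (adjusted p = 0.000805), and the receptor gene Tnfrsf10b by 0.78 ± 0.145 at 1 to 1.5 h (adjusted p = 0.00453). The list median was between -0.22 and 0.070.

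Of 15 genes for the turnover, binding and phosphorylation of Mcl1, Bad, Bmf and Bcl2l11, 7 were higher in some window, 7 lower and 2 not called, 1 gene being in both directions. The kinases Pim1 (1.73 ± 0.285, adjusted p = 0.00240) and Pim3 (1.66 ± 0.209, adjusted p = 0.000494), which can phosphorylate Bad, were higher at 1 to 1.5 h, and the dynein light chain Dynll1 was higher by 0.62 ± 0.194 at 19 to 23 h (adjusted p = 0.0242). Lower at 2 to 3 h were Dynll2, the light chain that binds Bmf (-1.07 ± 0.274, adjusted p = 0.00888), Btrc, a ubiquitin ligase subunit (-1.06, adjusted p = 0.000619), and the kinase Rps6ka1 (-0.87 ± 0.159, adjusted p = 0.00136). The list median was between -0.17 and 0.18.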

How the data were processed

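The authors demultiplexed the reads with CASAVA, aligned them to mm9 with STAR and counted reads on exons with HOMER, ignoring strand although the library kit was stranded, and deposited 1 table of the series. The deposited values are a normalised signal, scaled by the authors to the same total in every library. That total was taken as 10000000 tags, the default of HOMER, which no label states, and the depths in reads rest on it. Of its 96 columns 95 were matched to libraries by name, and 1 column was not used because its name matched no library title. Low values were whole multiples of the step of 1 read, between 94.2% and 96.2% of them per library within 0.1 of a whole number, so reads could be recovered. Intervals are not given, and the precision is that of the spread between the Cycles.

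The 10 members and the lists of other genes were chosen with earlier results of these data known. All members were named, with the 3 called genes of largest log2 change in each direction per list and, per member, the 2 genes of nearest course. Values were taken as log2(value + 1) and averaged over the hours of a window that both Cycles sampled, which gave 18 columns for limma 3.58.1 in R 4.3.3 (trend and robust options off, Cycle as a block, 8 residual degrees of freedom), with Benjamini-Hochberg adjustment over all 15895 genes within a contrast. No gene was filtered out. That the Cycles pair was checked by correlating the deviations of the same hours: over 465 pairs of hours the median r was 0.424, the lowest was -0.198, and 86.7% were over 0.1. The Cycle is kept as the block because each Cycle has its own starved baseline.

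Tests of 0 h against -1 h, of starved cells between Cycles and of the interaction of Cycle and window, and the description of late hours, were added after the data were seen. In simulated data for 11 to 14 h against starved cells, run on 15895 genes, limma found 45 of 50 genes changed by -1 and 47 of 50 changed by 1 on the log2 scale, and called 21 unchanged genes. The simulated Cycles differed by a fixed offset per gene, with no difference between Cycles that varied by window. These counts therefore do not measure the power or the errors of the fit to the real data. Alternatives covered pseudocounts, filters, scaling, the block, the variance model, the unit of the fit, leaving out Cycles or libraries, the baseline, and edgeR 4.0.16 on recovered reads. Gene positions are from GENCODE vM1 on NCBIM37, and promoters from RefSeq on GRCm38.p6, whose coordinates are not those of mm9. Protein sequences were not analysed here. Python 3.11.15, numpy 2.4.6, pandas 2.3.3 and matplotlib 3.10.9 were used.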

Additional observations from a re-analysis of the deposited data

Results flagged for a closer look

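The change after serum differed between Cycle 1 and Cycle 2 for 6 of the 10 members, by limma's test of the interaction of Cycle and window with an adjusted p under 0.05, which 41.4% of all genes passed. The adjusted p was 3.38e-05 for Bak1, 0.000460 for Bad, 0.00271 for Bax, 0.00593 for Pmaip1, 0.00807 for Bcl2l11 and 0.0459 for Bbc3. Bak1 and Bax rose more in Cycle 1, by 1.24 against 0.42 and by 1.31 against 0.57 at 24 to 27 h, and Bad fell more there, by -1.21 against -0.18 at 4 to 6 h. Pmaip1 was -1.27 against -0.20 at 11 to 14 h, Bcl2l11 -1.83 against -0.41 at 15 to 18 h, and Bbc3 -2.24 against -0.89 at 4 to 6 h. The test took the libraries of a window as samples, and hours of a course next to each other are not replicates, so these p-values are too small. Bmf differed by more in size, at -4.96 against -2.32 for 19 to 23 h, but its adjusted p was 0.0854.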

How the results depend on the processing

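Of the 43 calls of members against starved cells, between 39 and 52 were made under the other settings with all libraries, apart from a filter at a mean of 100, which leaves fewer members and gave 26 for the members, 32969 in place of 52630 for all genes and windows, and 5 in place of 8 for the F test. Leaving out a Cycle or a starved library gave 38 to 52. The count test of edgeR on recovered reads called 46 for the members and 53935 for all genes. Against the window before, 6 calls became 15 when every shared hour was a group of its own and 12 when either Cycle was left out, both of which take single libraries as samples. Apart from the filter, edgeR and TMM, counts over all genes under these settings are not given here. The counts of members therefore do not show how the members compare with other genes.

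Without the replicate block 39 calls were made against starved cells and 2 against the window before (Bbc3 at 2 to 3 h and Mcl1 at 4 to 6 h), and the 4 lost against starved cells were Bcl2 at 7 to 10 h, Bcl2l11 at 1 to 1.5 and 11 to 14 h and Bad at 2 to 3 h. The block changed no other call among the 80 pairs of member and window.

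A direction turned with a call on either side for Mcl1 alone, with the baseline. Against -1 h it was 0.090 at 11 to 14 h, 0.074 at 15 to 18 h, 0.13 at 19 to 23 h and 0.055 at 24 to 27 h, none of them called. At 4 to 6 h, not called against both hours, it was called at -0.55 against 0 h and at 0.63 against -1 h. In Cycle 1 alone the falls of Mcl1 at 19 to 23 and 24 to 27 h were not called. The baseline settings, and leaving out the libraries that stood apart (44 calls, or 43 without Cycle 1 at 24, 25 and 26 h), were chosen after seeing the data. Low counts limit Bmf, Pmaip1, Bcl2 and Bbc3, with 2, 11, 21 and 22 reads in their lowest libraries.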

Other observations

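The Cycle 2 library at 0.5 h has no counterpart in Cycle 1 and entered no comparison. In it Mcl1 was 4120, between the 3571 of 0 h and the 4804 of 1 h, and Bbc3 was 148, between 112 and 197. Bmf was 48.0 there, already below the 79.1 of 0 h and close to the 57.1 of 1 h. Bcl2 was 96.0, its highest value in any library. Bcl2l11 was 155, within its starved range of 143 to 191, and had not yet reached the 308 of 1 h.

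The Cycle 1 library at 24.5 h, likewise outside the shared hours, held the highest Bcl2l1 (1359), Bax (2565) and Bad (469) and the lowest Pmaip1 (15.4, from 11 reads) of all libraries. Mcl1 was 1267 in it, against 1711 at 24 h and 1954 at 25 h. This is the library that differed most from its neighbours over all genes.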
